A study of Mus musculus with 24 samples.

Results

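The 9 genes T, Mixl1, Evx1, Eomes, Mesp1, Mesp2, Gsc, Lhx1 and Tbx6 encode transcription factors of the primitive streak and early mesoderm. They were taken by symbol from a list of such factors, and all 9 were found among the 22926 gene symbols of the count tables. RNA-seq was done on mouse embryonic stem cells (ESCs) at D0, undifferentiated cells kept in leukemia inhibitory factor (LIF), and at D6, after 6 days without LIF. Each of the 24 libraries came from a clonal line of 129 strain origin. At either day there were 3 wild type (WT), 3 Tet1-/-, 2 Tet2-/-, 2 DKO (Tet1 and Tet2 deleted) and 2 TKO (Tet1, Tet2 and Tet3 deleted) libraries. All clones descended from a single parental ESC clone that carries an Oct4:IRES:eGFP reporter, and the mutations were insertions or deletions made with CRISPR/Cas9. The study's sequencing found a single allele of Tet2 in both Tet2-/- clones and of Tet3 in both TKO clones, and the state of the other allele is not known. A replicate was therefore a subclone of that parent, and the p-values measure the spread between subclones. LIF withdrawal lets ESCs leave pluripotency in mixed culture, so each value is an average over whatever cells were present.

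In the gastrulating mouse embryo, epiblast cells exposed to Nodal, Wnt and Bmp signals enter the primitive streak and leave it as mesoderm or definitive endoderm. T (Brachyury) is the founding T-box factor and marks the streak and its nascent mesoderm, and Mixl1 and Evx1 are homeobox factors of the streak, Evx1 of its posterior part. Eomes, another T-box factor, is needed for mesoderm to leave the streak and for definitive endoderm, and Mesp1 is a bHLH factor that marks the first cardiac and cranial mesoderm downstream of Eomes. Mesp2, its neighbour on chromosome 7, acts in somite segmentation. Gsc and Lhx1 are homeobox factors of the anterior streak and organizer, and Tbx6 is a T-box factor of paraxial mesoderm. The Tet enzymes oxidize 5-methylcytosine in DNA.

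The promoters of 8 members (all but Mixl1) matched the RefSeq promoter table (build GRCm38.p6) by symbol, and the 250 bases before each start were found at 1 place on the same chromosome of mm9, the build of the counts. The stretches of T and Evx1, which were called lower in Tet2-/- than in TKO cells at D6, and of Eomes and Lhx1, which were called lower in Tet2-/- than in WT cells, are shown here with motif letters in capitals. The motifs searched on both strands were TCF/LEF (CTTTGAT or CTTTGAA), the SMAD box (CAGAC), FoxH1 (AATCCACA or AATACACA), a T-box site (TCACACCT) and the TATA box (TATAAA). These are letters at mm9 chr17:8627038-8627287 (plus strand), chr6:52263242-52263491 (plus), chr9:118387057-118387306 (plus) and chr11:84339037-84339286 (minus), each ending next to the RefSeq start.
T: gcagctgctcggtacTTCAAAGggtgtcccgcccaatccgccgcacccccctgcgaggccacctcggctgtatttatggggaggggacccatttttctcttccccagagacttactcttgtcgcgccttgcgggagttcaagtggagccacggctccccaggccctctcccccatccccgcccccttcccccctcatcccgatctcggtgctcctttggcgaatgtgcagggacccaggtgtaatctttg
Evx1: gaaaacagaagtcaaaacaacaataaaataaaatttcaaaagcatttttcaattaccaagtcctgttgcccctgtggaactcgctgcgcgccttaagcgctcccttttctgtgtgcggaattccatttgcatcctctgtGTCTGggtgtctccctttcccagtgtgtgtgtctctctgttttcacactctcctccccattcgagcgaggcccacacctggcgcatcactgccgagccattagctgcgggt
Eomes: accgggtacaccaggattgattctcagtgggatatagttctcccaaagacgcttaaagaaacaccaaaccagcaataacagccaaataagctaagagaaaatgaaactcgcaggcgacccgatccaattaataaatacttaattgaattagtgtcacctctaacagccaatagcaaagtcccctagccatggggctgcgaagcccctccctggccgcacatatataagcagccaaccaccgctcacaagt
Lhx1: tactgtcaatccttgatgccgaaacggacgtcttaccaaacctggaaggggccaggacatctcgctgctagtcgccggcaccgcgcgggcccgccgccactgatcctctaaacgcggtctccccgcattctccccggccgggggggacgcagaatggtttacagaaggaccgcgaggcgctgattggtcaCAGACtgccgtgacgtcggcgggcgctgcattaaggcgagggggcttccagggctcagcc
The T stretch held 1 TCF/LEF match, 229 bases before the start, and the Evx1 and Lhx1 stretches held 1 SMAD box each. The Eomes stretch held no match to any of the 5 motifs. Among the other 4 promoters, Mesp1 had 1 match to each TCF/LEF spelling, Mesp1 and Tbx6 had a SMAD box, and Gsc and Tbx6 had a TATA box. Of 27025 promoters in the table, 7.67% held a TCF/LEF match, 42.1% a SMAD box, 1.67% a FoxH1 match, 1.14% the T-box letters and 13% a TATA box in the same window. CpG dinucleotides numbered 14 in the T, 10 in the Evx1, 8 in the Eomes and 26 in the Lhx1 stretch, beside a median of 6 over all promoters. A match describes letters only.

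Library totals ran from 18400463 to 37290208 counts, and values are given as CPM, counts scaled to the library total with TMM factors, where 3 counts equal 0.0814 to 0.151 CPM. The ESC identity of the D0 libraries was checked on 12 pluripotency genes, whose summed level was 5750 to 7070 CPM at D0, with no gene of the list at 0 in a group. Tet2 RNA at D0 was 20.9 to 23.2 CPM in Tet2-/- and 87.9 to 93.9 CPM in WT, but at D6 it was 15.9 to 16.6 and 12.3 to 16.0 CPM. Tet1 RNA at D6 was 82.4 to 190 CPM in Tet1-/- and 108 to 125 CPM in WT, and Tet3 RNA at D6 was 7.72 to 8.74 CPM in TKO and 13.3 to 21.0 CPM in WT. An insertion or deletion need not remove a transcript, so these levels do not check the genotypes.

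At D0 T, Mesp1, Evx1, Tbx6 and Lhx1 had few counts, whereas Gsc, Mixl1, Mesp2 and Eomes were above the 3-count level in all 12 libraries. T lay between 0.0427 and 0.661 CPM over the 12 D0 libraries, which is 1 to 15 counts per library. Mesp1 had 2 to 17 counts, Evx1 2 to 17, Tbx6 1 to 9 and Lhx1 0 to 2 counts per library. Gsc lay between 0.376 and 1.52 CPM (9 to 37 counts), Mixl1 between 1.30 and 2.72 CPM (30 to 77 counts) and Mesp2 between 2.12 and 3.50 CPM (48 to 88 counts). Eomes had the highest counts of the 9 before differentiation, at 6.38 to 21.3 CPM and 158 to 510 counts.

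Genotypes were compared with WT at D0 for the 7 members that passed the low-count filter of edgeR, which left out Tbx6 and Lhx1. A gene was called changed when its Benjamini-Hochberg adjusted p in edgeR's quasi-likelihood test was below 0.05 and its fold change above 2. The only call was Eomes in TKO cells, 1.09 ± 0.296 (SE) higher on the log2 scale (adjusted p = 0.0402), beside 1.03% of 14456 genes called higher in that comparison. Its level was 21.3 CPM in TKO replicate 1 and 8.36 CPM in replicate 2, beside 6.38 to 7.36 CPM in the 3 WT libraries. The groups did not overlap, but replicate 1 lay much further from WT, and without it the estimate was 0.26 (adjusted p = 0.373) and Mesp1 was the 1 member called. The call was also lost when any of the 3 WT, 3 Tet1-/-, 2 Tet2-/- or 2 DKO libraries was left out of the fit (0 members called). It was lost with limma-voom as well. In Tet2-/- cells T was at 0.0427 and 0.0876 CPM, 1 and 3 counts, below the 0.242 to 0.329 CPM of WT, with a log2 difference of -1.95 ± 0.730 that missed the threshold (adjusted p = 0.101). No member was called in Tet1-/-, Tet2-/- or DKO cells at D0 by edgeR, DESeq2 or limma-voom, and 1, 2 and 0 members had an unadjusted p under 0.05, beside 12.6%, 29.2% and 14.4% of genes. Over all genes DESeq2 called 50, 508 and 110 and limma-voom 0, 452 and 4. Genes called higher and lower in these comparisons made up 0% and 0.00692% in Tet1-/-, 0.816% and 2.37% in Tet2-/- and 0.0138% and 0.0208% in DKO cells, and 2.12% of genes were called lower in TKO cells.

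LIF withdrawal raised 8 of the 9 members in WT cells, beside 20.7% of 15639 genes called higher. T rose from 0.277 ± 0.0461 CPM (SD, n = 3) at D0 to 77.2, 138 and 164 CPM at D6 in clones O4.2, O4.1 and O4.13, a log2 change of 8.81 ± 0.655 (SE, adjusted p = 2.82e-09). Eomes rose from 6.94 ± 0.506 CPM (SD, n = 3) to 96.7, 261 and 232 CPM in the same clones (log2 change 4.82 ± 0.406). For both genes every D6 library lay above every D0 library. Lhx1 went from 2 counts over the 3 D0 libraries to 54.2, 180 and 124 CPM, a ratio of 4320 with a counting interval of 1200 to 35700. Mesp1 rose from 0.179 ± 0.102 CPM (SD, n = 3) to 9.0, 24.9 and 34.9 CPM (log2 change 6.96 ± 1.05). The other called changes on the log2 scale were 6.32 ± 0.789 for Evx1, 5.41 ± 0.651 for Mixl1, 4.01 ± 0.368 for Gsc and 3.87 ± 0.673 for Tbx6. Tbx6 nevertheless stayed low, at 0.907, 1.36 and 2.13 CPM. Mesp2 was the member without a call, at 2.58 ± 0.536 CPM (SD, n = 3) before and 2.72, 3.98 and 4.93 CPM after withdrawal (0.59 ± 0.498, adjusted p = 0.307 in edgeR). The values of all 9 genes are plotted per clone.

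**Figure D1:**
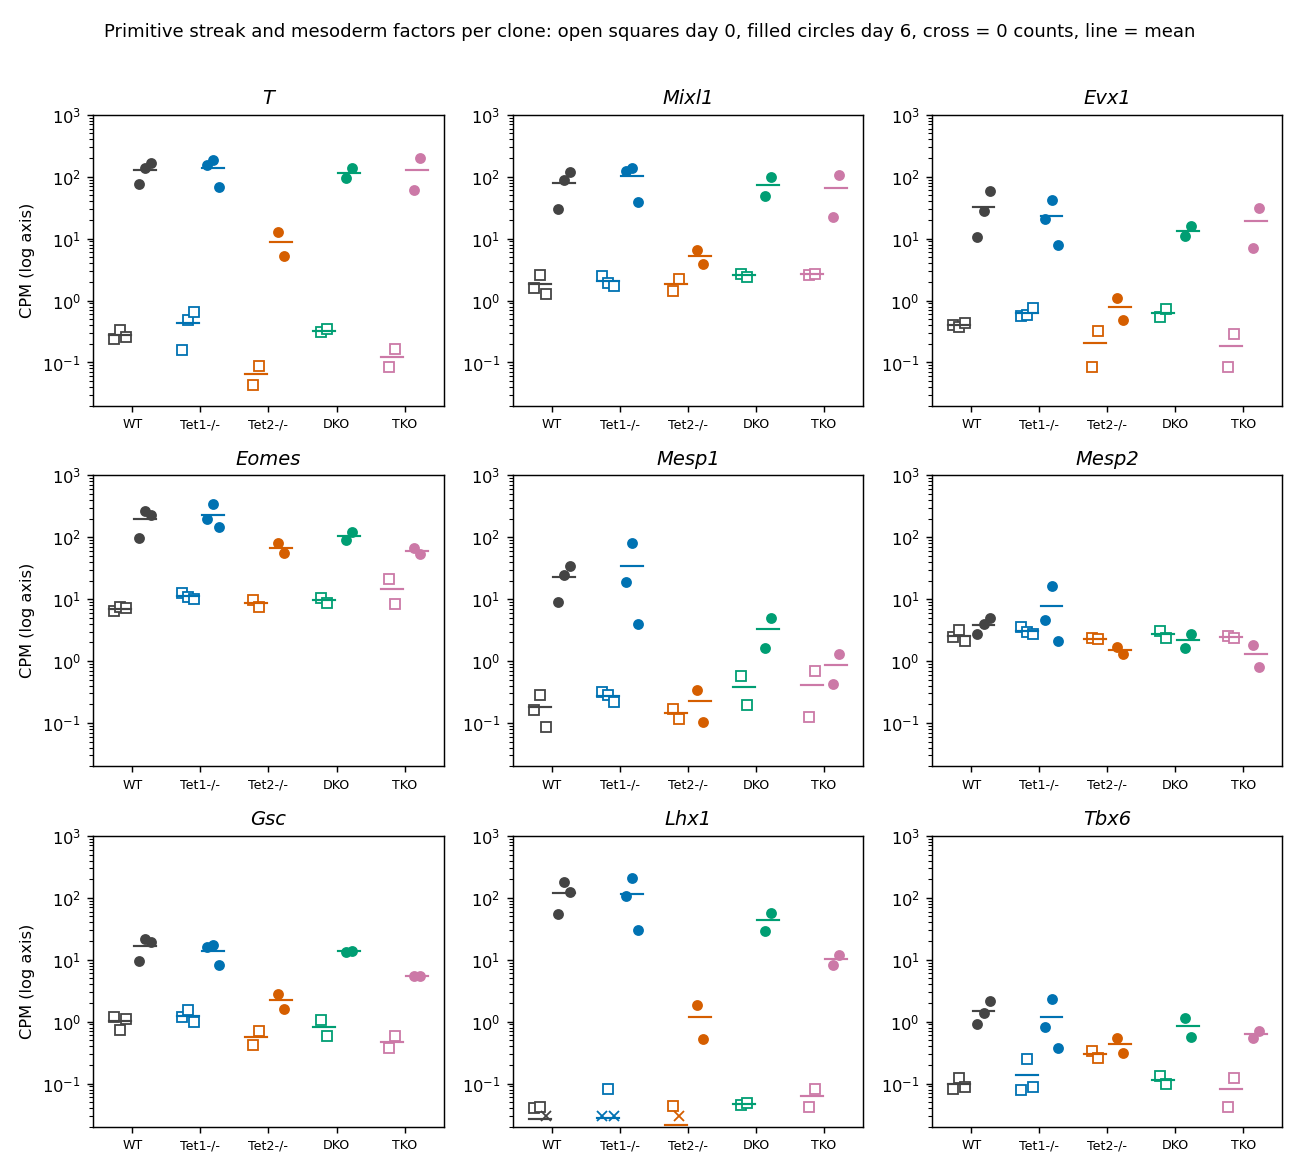
CPM of each member on a log axis, by genotype, with 1 point per library (open squares D0, filled circles D6, crosses 0 counts) and a line at the group mean. The 2 Tet2-/- circles lie below the 3 WT circles in all 9 panels, whereas for T, Mixl1 and Evx1 1 TKO circle lies below all WT circles and the other does not.

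Levels were compared between genes only per kilobase of exon. On this scale the WT D6 means were 54.7 CPM per kb for T, 47.4 for Eomes, 34.5 for Mixl1, 29.0 for Lhx1, 18.0 for Mesp1, 13.1 for Gsc, 11.2 for Evx1, 2.00 for Mesp2 and 0.813 for Tbx6. The ranges of neighbours in this order overlapped over the 3 clones, except at the steps from Evx1 to Mesp2 and from Mesp2 to Tbx6. Single clones ranged from 33.4 to 71.1 CPM per kb for T and from 23.3 to 62.9 for Eomes.

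The same D6 against D0 comparison was run within each mutant genotype. All 9 members rose in Tet1-/- cells (19.9% of genes called higher), 8 in DKO cells (18.6%), 7 in TKO cells (16.8%) and 4 in Tet2-/- cells (12.7%). Mesp2 was called only in Tet1-/- cells (1.33 ± 0.489, adjusted p = 0.0232). It rested on clone 2.2, which had 16.6 CPM at D6 and no D0 library, while clones 2.1 and 2.4 had 4.61 and 2.11 CPM, and it was 0.19 without that library (adjusted p = 0.660) and 0.03 with the clone as a block (adjusted p = 0.955). The call was also lost without D0 replicate 2 (adjusted p = 0.0630) or 3 (0.0677) of Tet1-/-. In TKO cells Mesp1 was not called either, going from 0.413 ± 0.407 CPM (SD, n = 2) to 0.431 and 1.30 CPM (0.96 ± 1.31, adjusted p = 0.561 in edgeR). The Tbx6 call in TKO was lost without D0 replicate 1 (adjusted p = 0.0977). In DKO the Mesp1 call was lost without D0 replicate 1 (adjusted p = 0.0807), D0 replicate 2 (0.179) or D6 replicate 2 (0.236), and the Tbx6 call without D0 replicate 2 (0.0557) or D6 replicate 1 (0.0776). With limma-voom the calls of Mesp2 in Tet1-/- (adjusted p = 0.187), Mesp1 in DKO (0.299), Lhx1 in TKO (0.0515) and Lhx1 in Tet2-/- cells (0.242) were lost, which left 8, 7, 6 and 3 members.

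In Tet2-/- cells the 4 members that rose were T, Eomes, Gsc and Lhx1. T went from 1 and 3 counts at D0 to 12.7 CPM in replicate 1 and 5.16 CPM in replicate 2 (log2 change 6.93 ± 0.991, adjusted p = 2.75e-05 in edgeR). Eomes rose from 7.36 and 9.81 CPM to 79.9 and 55.6 CPM (2.99 ± 0.460), and Gsc from 0.427 and 0.701 CPM to 2.79 and 1.60 CPM (1.93 ± 0.471). The remaining call was Lhx1, with 1 count over the 2 D0 libraries and 64 and 15 counts at D6. Without replicate 1 at D6 the calls of Gsc (adjusted p = 0.0633) and Lhx1 (0.18) were lost, and that of Lhx1 also without D0 replicate 1 (0.0567) or 2 (0.141). The 5 members without a call had log2 changes nearer to 0 than in WT except Mesp2, whose sign differed: Mixl1 1.46 ± 0.753, Evx1 1.84 ± 1.16, Mesp1 0.73 ± 1.80, Tbx6 0.54 ± 0.729 and Mesp2 -0.61 ± 0.629.

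At D6, 7 of the 9 members were lower in Tet2-/- than in WT cells and none was higher, beside 9.45% of 15435 genes called lower and 4.81% called higher. Every Tet2-/- library lay below every WT library for all 9 members, which held for 31.6% of all genes tested. The posterior and pan-streak factors T, Mixl1 and Evx1 were all among the calls. T was at 12.7 and 5.16 CPM against 77.2 to 164 CPM in WT, 7.05% of the WT mean (log2 difference -3.83 ± 0.667, adjusted p = 0.00556). Mixl1 was at 6.48 and 3.87 CPM against 30.4, 89.0 and 118 CPM (-3.94 ± 0.871, adjusted p = 0.0109). Evx1 was at 1.09 and 0.488 CPM against 10.5, 27.9 and 58.5 CPM (-5.33 ± 1.07, adjusted p = 0.00805). The mm9 annotation places an antisense gene over Evx1, and the library kit does not mark strand, so reads of the pair cannot be told apart.

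Eomes kept the largest share of its WT level among the 7 called members. It was at 79.9 and 55.6 CPM against 96.7, 261 and 232 CPM in WT, 34.4% of the WT mean (-1.55 ± 0.440, adjusted p = 0.0255). Mesp1, in contrast, had 12 and 3 counts in the 2 Tet2-/- libraries, 0.345 and 0.105 CPM, against 9.0, 24.9 and 34.9 CPM (-6.60 ± 1.47, adjusted p = 0.0111). This was 0.983% of WT and within the range of the D0 libraries. The organizer factor Lhx1 was at 1.84 and 0.523 CPM against 54.2, 180 and 124 CPM, 0.989% of WT (-6.63 ± 0.997, adjusted p = 0.00426), and Gsc at 2.79 and 1.60 CPM against 9.36, 21.3 and 19.1 CPM (-2.92 ± 0.436, adjusted p = 0.00426). Mesp2 (1.67 and 1.32 CPM against 2.72 to 4.93) and Tbx6 (0.547 and 0.314 CPM against 0.907 to 2.13) did not pass (adjusted p = 0.176 and 0.0842 in edgeR).

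These calls rested on 2 Tet2-/- clones. Leaving out replicate 1 ended part of the calls and leaving out replicate 2 ended all of them. In these fits the remaining clone was assumed to vary like the other groups. Each of the 7 kept its direction, with T at -3.33 and Lhx1 at -6.03 without replicate 2. The call of Eomes was also lost without WT clone O4.1 (adjusted p = 0.0764) or O4.13 (0.0729). Without the Tet1-/- clone 2.2 or 2.4, which enter the shared estimate of the spread, 9 or 8 members were called. The share of all genes called in these fits is not given here, so a loss or gain cannot be read as particular to the members. In the full fit 8 of 9 members had an unadjusted p under 0.05, beside 42.9% of genes, and DESeq2 called 7 members and 2345 genes and limma-voom 6 members and 2129 genes. In a bulk culture, fewer cells of a type and less RNA per cell cannot be told apart.

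**Figure D2:**
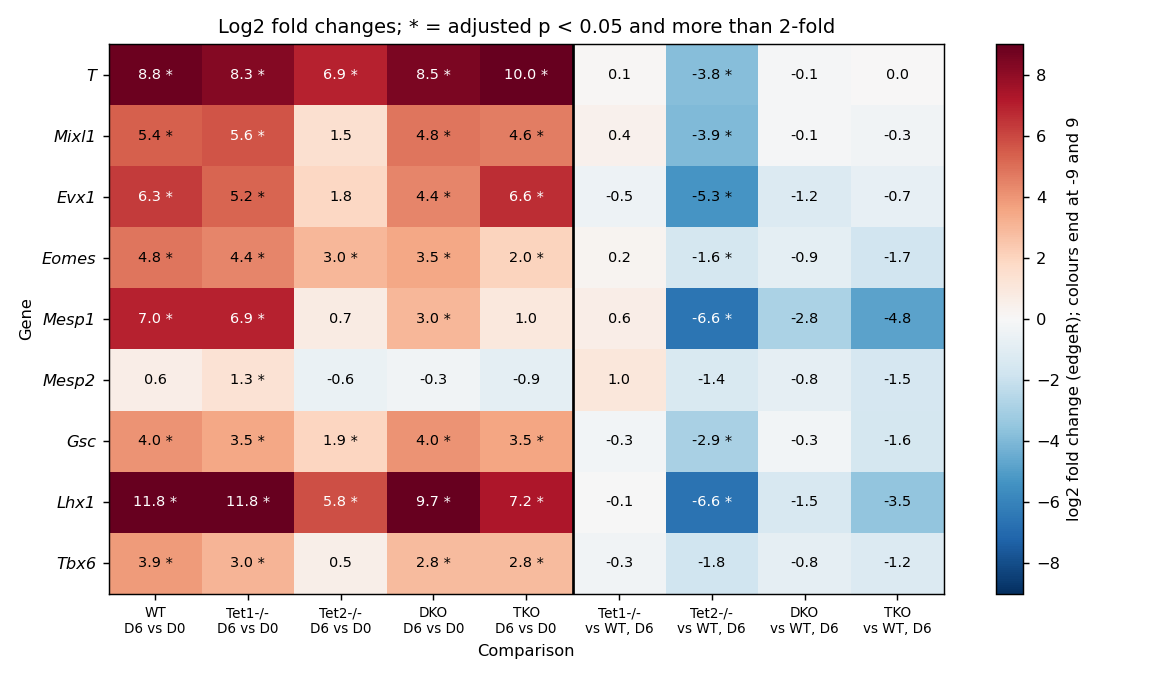
Log2 fold changes from edgeR for the 9 members, with D6 against D0 in each genotype on the left and each mutant against WT at D6 on the right; an asterisk marks a call. The Tet2-/- column against WT holds 7 calls and the Tet1-/-, DKO and TKO columns hold none.

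The rise itself was compared between genotypes as an interaction of day and genotype. In Tet2-/- cells the change from D0 to D6 was smaller than in WT for Mixl1 (-3.95 ± 0.990, adjusted p = 0.0141), Tbx6 (-3.33 ± 1.03, adjusted p = 0.0362), Gsc (-2.08 ± 0.604, adjusted p = 0.0275) and Eomes (-1.84 ± 0.571, adjusted p = 0.0362), which is 4 of 9 members beside 5.13% of genes. With the clone as a block, Mesp1 (-6.27 ± 1.22, adjusted p = 0.00676) and Evx1 (-4.38 ± 1.05, adjusted p = 0.0155) were also called, which is 6 members beside 6.06% of genes called lower in that fit. T gave -1.88 ± 2.3 and Lhx1 -6.06 ± 6.68 in edgeR, estimates with wide errors. The D0 counts behind Tbx6 were also few, at 2, 3 and 2 in WT and 8 and 9 in Tet2-/- libraries, so that it was higher in Tet2-/- at D0 (0.341 and 0.263 against 0.0808 to 0.123 CPM), and its D6 difference was not called. With limma-voom 0 members and 1276 genes were called, and with DESeq2 7 members and 1633 genes. Leaving out Tet2-/- replicate 2 at either day left 0 calls, and leaving out replicate 1 left 1 (its D0 library) or 2 (its D6 library). Leaving out the D0 library of WT clone O4.1, O4.2 or O4.13 left 2, 1 or 2 calls, and leaving out the D6 library of O4.1 or O4.13 left 1. How many of all genes were called in these fits is not given here, so the losses cannot be read as particular to the members.

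Tet2-/- cells were also compared with the other mutants at D6. Against Tet1-/- cells 7 members were lower (4.48% of genes), Mesp2 and Tbx6 being without a call as they were against WT, with T at -3.94 ± 0.670 (adjusted p = 0.0114). Against DKO cells, which lack Tet2 as well, 5 were lower (6.37%): T -3.72 ± 0.685, Mixl1 -3.84 ± 0.895, Evx1 -4.08 ± 1.06, Gsc -2.65 ± 0.450 and Lhx1 -5.16 ± 0.972. Against TKO cells 3 were lower (6.01%): T -3.88 ± 0.689 (adjusted p = 0.00975), Mixl1 -3.65 ± 0.890 (0.0253) and Evx1 -4.59 ± 1.08 (0.0226). The other 6 members were not called in edgeR. Lhx1 was lower in both Tet2-/- than in both TKO libraries (-3.08 ± 0.950, adjusted p = 0.0520) and was called with DESeq2, no filter, all 24 libraries or the 2 groups alone. Gsc gave -1.35 ± 0.445 (adjusted p = 0.0636) and was called with DESeq2 and with all 24 libraries. The remaining estimates were -1.80 ± 1.71 for Mesp1, -0.54 ± 0.802 for Tbx6, 0.14 ± 0.459 for Eomes and 0.11 ± 0.816 for Mesp2. With limma-voom 4 members and 845 genes were called against Tet1-/-, 2 and 1485 against DKO and 1 and 1057 against TKO. Against TKO the calls of Mixl1 (adjusted p = 0.110 in limma-voom) and Evx1 (0.132) were lost. Both Tet2-/- libraries lay below all 10 other D6 libraries for 6 of 9 members, which held for 15.2% of genes. These comparisons share the same 2 Tet2-/- libraries, and leaving out replicate 2 ended every call in all 3 of them. Leaving out replicate 1 ended every call against Tet1-/- and TKO and part of those against DKO. Without replicate 2, T gave -3.44 against Tet1-/-, -3.22 against DKO and -3.37 against TKO. For these and the following fits the share of all genes called is not given here. A loss or gain therefore cannot be read as particular to the members. Against Tet1-/- 4 calls were left without clone 2.1, 6 without clone 2.2 and 8 without clone 2.4. Against DKO 3 were left without either DKO clone, and 6 were made without Tet1-/- clone 2.2 or 2.4. Against TKO 0 were left without TKO replicate 2, and 5 were made without WT clone O4.2 or without Tet1-/- clone 2.4 and 4 without clone 2.2.

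In Tet1-/-, DKO and TKO cells no member was called against WT at D6, and 0% of all genes tested were called in these 3 comparisons by edgeR. At an unadjusted p under 0.05 there were 0 members in Tet1-/-, 1 in DKO (Mesp1) and 4 in TKO (Eomes, Mesp1, Gsc and Lhx1), and 1949, 2250 and 3629 genes in all. DESeq2 called 0, 0 and 4 members and 43, 185 and 470 genes, and limma-voom called 0 members and 0 genes in each. In Tet1-/- cells T was at 155, 187 and 67.4 CPM and Lhx1 at 107, 209 and 30.5 CPM, both overlapping WT. For 0 of 9 members did every Tet1-/- library lie below every WT library, beside 7.33% of genes. No member differed by more than 0.99 on the log2 scale, the value of Mesp2.

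The 2 TKO clones lay on either side of WT for T. T was at 60.3 CPM in replicate 1 and 200 CPM in replicate 2, and Mixl1 at 22.5 and 107 CPM, with log2 differences from WT of 0.05 ± 0.551 and -0.29 ± 0.718. The direction of T, already near 0, flipped with library totals in place of TMM, with limma-voom and with a block by replicate number. Evx1 was at 7.10 and 31.4 CPM (-0.75 ± 0.804). Lhx1 was at 8.24 and 12.1 CPM, 8.52% of the WT mean, and both libraries lay below the lowest WT value of 54.2 CPM (-3.55 ± 0.815, adjusted p = 0.0696 in edgeR). Eomes was at 67.5 and 52.7 CPM, 30.5% of WT (-1.69 ± 0.443, adjusted p = 0.0793), Gsc at 5.51 and 5.54 CPM, 33.3% of WT (-1.57 ± 0.403, adjusted p = 0.0778), and Mesp1 at 0.431 and 1.30 CPM, 3.77% of WT (-4.80 ± 1.29, adjusted p = 0.0828). Both TKO libraries lay below all WT libraries for 6 of 9 members, beside 19.2% of genes, and T, Mixl1 and Evx1 were the 3 that overlapped. The 4 genes with the low unadjusted p were called when all 24 libraries were fitted together, beside 1.73% of genes called lower, and when WT clone O4.2 was left out (4 calls, beside 2.24%). Leaving out Tet1-/- clone 2.2 or 2.4 gave 3 calls, beside 0.855% and 0.813% of genes.

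**Figure D3:**
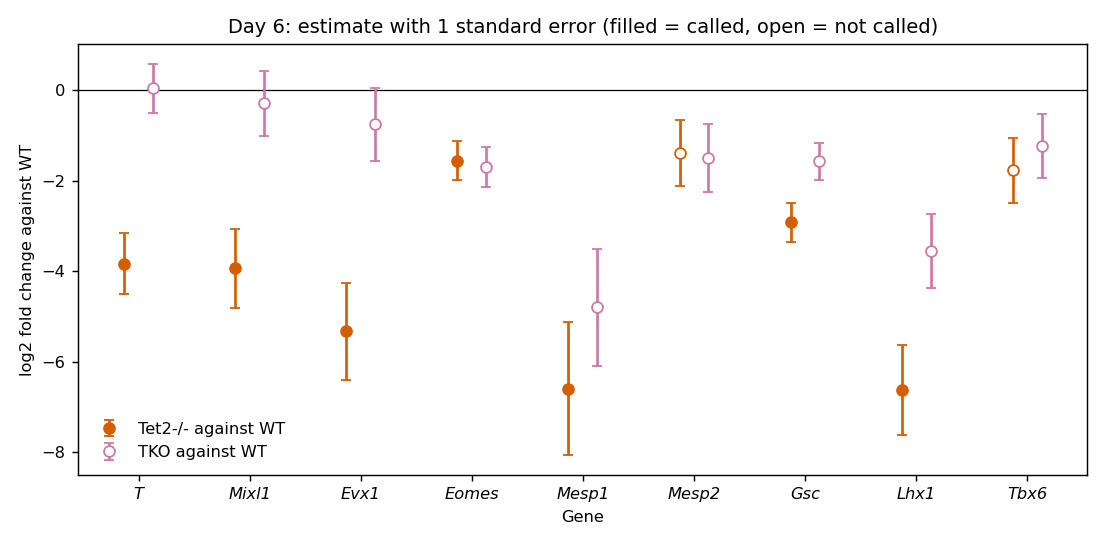
Log2 differences from WT at D6 with 1 standard error for Tet2-/- (orange) and TKO (pink), filled where called. For T the Tet2-/- estimate is -3.83 and the TKO estimate 0.05, whereas for Eomes the estimates are -1.55 and -1.69.

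The difference in the rise between TKO and WT cells was called for Eomes (-2.80 ± 0.570, adjusted p = 0.0104), 1 member beside 1.74% of genes called lower. Its D0 level was high in TKO replicate 1, and without that D0 library no member was called (adjusted p = 0.0515 for Eomes). With limma-voom the call of Eomes was lost as well (-2.52, adjusted p = 0.0534), with 0 members and 457 genes called. There were 2 calls without the D6 library of WT clone O4.2 or of Tet1-/- clone 2.2 or 2.4. With the clone as a block Mesp1 (-5.71 ± 0.866, adjusted p = 0.00533) and Lhx1 (-4.59 ± 1.12, adjusted p = 0.0317) were called as well, which is 3 members beside 2.28% of genes called lower in that fit. In Tet1-/- and DKO cells the rise gave no call among the members in edgeR, DESeq2 or limma-voom, with 0 and 2 members at an unadjusted p under 0.05, beside 7.67% and 8.02% of genes. Over all genes edgeR called 0%, DESeq2 12 and 20 genes and limma-voom 0, so that calls were rare in the whole table.

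In DKO cells the members spanned 14.2% to 92.8% of their WT means at D6. Mesp1 was at 1.60 and 4.90 CPM in replicates 1 and 2, 14.2% of WT and below all WT libraries (-2.82 ± 1.09, adjusted p = 0.284 in edgeR), the 1 member of 9 without overlap, beside 18.6% of genes. Lhx1 was at 28.9 and 57.4 CPM (36.1% of WT), Eomes at 90.3 and 123 CPM (54.1%), with Evx1 at 41.9% of WT, and T at 94.4 and 139 CPM (92.3%). TKO against DKO gave no call among the members in edgeR, DESeq2 or limma-voom, which called 0, 4 and 0 genes in all. At an unadjusted p under 0.05 there were 2 members, Gsc (-1.31 ± 0.425) and Lhx1 (-2.08 ± 0.804), beside 8.27% of genes.

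Clones of a genotype differed in the members as a group. Within WT at D6, clone O4.2 had the lowest value for all 9 members. Within Tet1-/-, clone 2.2 had the highest and clone 2.4 the lowest value for all 9, and in Tet2-/- replicate 1 was above replicate 2 for all 9. In TKO, replicate 2 was higher for 7 members and replicate 1 for Eomes and Mesp2. The summed level of the 12 pluripotency genes moved the other way in WT, at 2290 CPM in clone O4.2 and at 1220 and 1370 CPM in clones O4.1 and O4.13. It was 2980 and 3200 CPM in Tet2-/- replicates 1 and 2, 1510 to 2190 CPM in Tet1-/-, 1840 to 1880 CPM in DKO and 2070 to 2280 CPM in TKO. No pluripotency gene of the list was at 0 in any group, and the part of these levels in the member results was not tested. Over the 12 D6 libraries, which share genotypes and a parental line, the log2 level of each member ran against that of the summed pluripotency genes, with Pearson correlations from -0.622 for Mesp2 to -0.927 for Gsc.

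The ratio of members within a library was described as well. It is a ratio of CPM without correction for exon length, so it compares libraries and does not rank the levels of the genes. T over Eomes was 0.528 to 0.798 in WT, 0.455 to 0.790 in Tet1-/-, 1.04 and 1.13 in DKO, 0.893 and 3.79 in TKO, and 0.159 and 0.0928 in Tet2-/-. Tet2-/- libraries were lowest and TKO replicate 2 highest. T over Lhx1 was 0.767 to 1.42 in WT, 0.896 to 2.21 in Tet1-/-, 3.26 and 2.43 in DKO, 7.31 and 16.5 in TKO and 6.89 and 9.87 in Tet2-/-, so that all libraries of the last 3 genotypes lay above WT. T over Mesp1 was 4.72 to 8.58 in WT, 2.31 to 16.8 in Tet1-/-, 28.5 and 58.9 in DKO, 36.7 and 49.3 in Tet2-/- and 140 and 154 in TKO. Some of these ratios divide by few counts and carry wide counting error. Mesp1 held 12 and 3 counts in the Tet2-/- and 14 and 26 in the TKO libraries, and Lhx1 64 and 15 in the Tet2-/- libraries.

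Over the 12 D6 libraries the members were compared by Pearson correlations of log2(CPM + 1), which describe libraries sharing genotypes and a parental line. T, Mixl1 and Evx1 ran together (T with Mixl1 0.975, T with Evx1 0.955). Gsc ran with Lhx1 (0.972) and Eomes with Mesp1 (0.937), while T and Eomes reached 0.555. Lhx1 also correlated with Mesp1 (0.919), Mixl1 (0.880), Evx1 (0.872), Eomes (0.864) and T (0.853), and T with Gsc (0.854). Of all genes, those nearest to T were Mmp19 (0.977), Mixl1 and Col4a5 (0.975), and those nearest to Mixl1 were Axin2 (0.976), T and Mmp19. Nearest to Evx1 were Nfatc1 (0.982), Pcdh7 (0.977) and Bmp2 (0.975). Nearest to Eomes were Wnt2b (0.978), Grrp1 (0.975) and Fzd1 (0.963). Mesp1 was nearest to Kdr (0.991), the VEGF receptor of early vascular and cardiac mesoderm, then to Snai1 (0.979), a factor of epithelial to mesenchymal transition, and Plxna4 (0.978). Lhx1 was nearest to Cyth3 (0.982), Gata6 (0.979) and Cyp26a1 (0.977), and Gsc to Mdfi (0.981), Prkcd (0.981) and Ptprn (0.978). Mesp2 was nearest to Cyp4f15 (0.950), Chst2 (0.946) and Grrp1 (0.941), and Tbx6, at its low level, to Ypel3 (0.962), Limd2 (0.949) and Mterf2 (0.946).

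**Figure D4:**
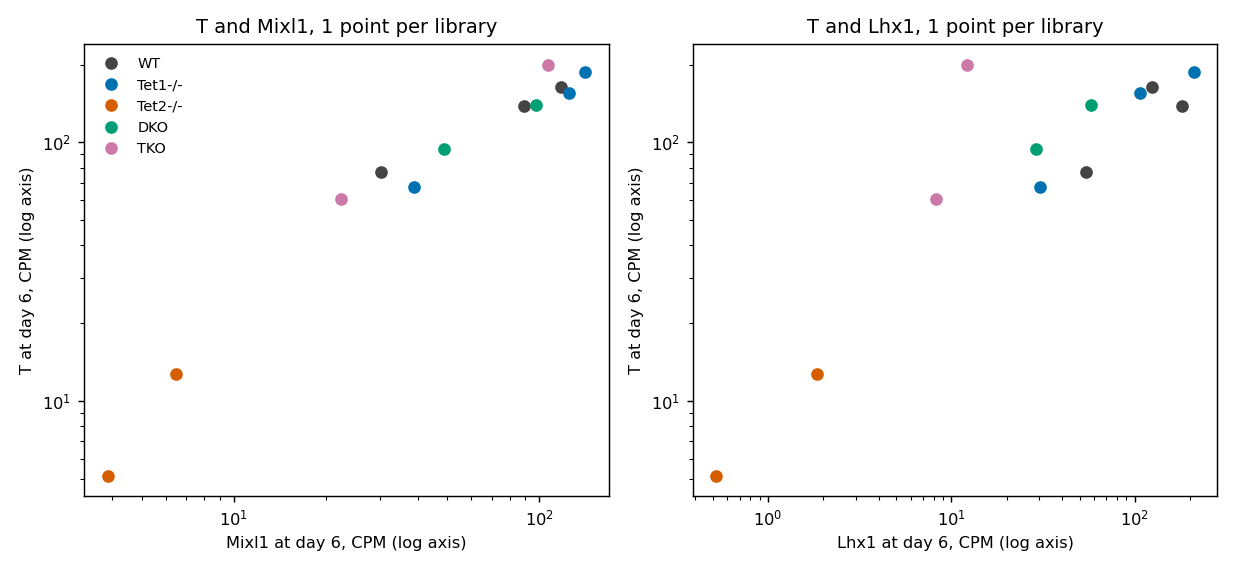
T against Mixl1 (left) and T against Lhx1 (right) at D6, in CPM on log axes, with 1 point per library coloured by genotype. T and Mixl1 are low together in both Tet2-/- libraries (5.16 to 12.7 and 3.87 to 6.48 CPM), whereas the 2 TKO libraries have less Lhx1 (8.24 and 12.1 CPM) than other libraries of the same T level.

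The wider program was read from lists of genes that hold no member, beside 20.7% of all genes called higher and 13.3% called lower in WT cells, and 4.81% and 9.45% in Tet2-/- against WT cells at D6. Of 21 signals that induce the streak and their transducers, 10 rose and 2 fell in WT cells from D0 to D6 (median log2 change 0.90, beside 0.01 over all genes). Fgf8 reached 99.0 ± 27.7 CPM (SD, n = 3) from 0.238 CPM, and the streak inducer Wnt3 80.9 ± 36.4 CPM from 0.433 CPM. Lef1, a transcription factor of the Wnt pathway, rose by 4.73 ± 0.425 on the log2 scale. In Tet2-/- cells at D6, 5 of the 21 were lower than in WT and none higher (median -0.33, beside -0.03 over all genes). Wnt3 was at 11 ± 2.68 CPM (SD, n = 2; -2.89 ± 0.550, adjusted p = 0.00689), Fgf8 at 21.1 ± 2.84 CPM (-2.25 ± 0.342, adjusted p = 0.00434) and Wnt8a at 2.66 ± 0.756 CPM against 7.57 ± 1.39 CPM (-1.52 ± 0.462, adjusted p = 0.0328). Wnt3a, another Wnt ligand of the streak, was near the detection limit, at 0.0318 against 0.729 CPM.

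Of 17 tested posterior streak and paraxial mesoderm genes, 10 rose and 2 fell in WT cells (median 2.49), and 6 were lower and 1 higher in Tet2-/- than in WT cells at D6 (median -1.48). Sp5, a target of Wnt signalling, was at 61.9 ± 33.1 CPM (SD, n = 3) in WT and 4.5 ± 2.02 CPM (SD, n = 2) in Tet2-/- cells (-3.78 ± 0.662, adjusted p = 0.00560). The caudal homeobox factor Cdx2 was at 14.9 ± 11.3 and 0.565 ± 0.188 CPM (-4.74 ± 1.19, adjusted p = 0.0167), Foxc1 at 3.69 and 0.533 CPM and Meox1 at 0.681 and 0.0637 CPM. Sp8 rose in WT cells from 0.0416 to 11.7 CPM.

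Anterior streak, node and definitive endoderm genes numbered 14 tested, of which 10 rose and 1 fell in WT cells (median 3.84) and 10 were lower and 2 higher in Tet2-/- than in WT cells (median -2.36). The endoderm factor Sox17 was at 37.5 ± 29.3 CPM (SD, n = 3) in WT and 0.268 ± 0.231 CPM (SD, n = 2) in Tet2-/- cells (-7.06 ± 1.22, adjusted p = 0.00556), and the Wnt antagonist Dkk1 at 25.1 ± 16.3 and 0.424 ± 0.255 CPM (-5.85 ± 1.07, adjusted p = 0.00614). Cer1, an antagonist of Nodal and Bmp, was listed at 0 in the 3 WT D0 libraries and reached 38 ± 24.9 CPM in WT and 0.643 ± 0.515 CPM in Tet2-/- cells at D6. Foxa2 rose in WT cells from 0.151 to 21.5 CPM, and Shh, at 1.29 CPM in WT, was listed at 0 in Tet2-/- cells. The summed level of the 15 genes of this list at D6 was not lower in Tet2-/- cells, at 683 to 748 CPM. It was 424 to 652 CPM in WT, 433 to 471 CPM in Tet1-/-, 449 to 474 CPM in DKO and 304 to 371 CPM in TKO cells. Of 16 lateral plate and cardiac mesoderm genes 12 rose and 1 fell in WT cells (median 4.44), and 9 were lower in Tet2-/- cells with none higher (median -3.79). Hand1 was at 127 ± 90.9 against 0.796 ± 0.107 CPM (-7.33 ± 1.27, adjusted p = 0.00556), Pdgfra, a receptor of mesoderm, at 58.8 ± 32.6 against 0.563 ± 0.303 CPM (-6.68 ± 1.22, adjusted p = 0.00613), and Aplnr, the apelin receptor, at 61.4 ± 30.1 against 0.533 ± 0.508 CPM. Foxf1 rose in WT cells from 0.0281 to 13.6 CPM, and Hand2, at 6.28 CPM in WT, was listed at 0 in Tet2-/- cells.

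In edgeR none of these lists had a called gene in Tet1-/-, DKO or TKO cells against WT at D6, where it called no gene at all, while DESeq2 called the 43, 185 and 470 genes given above. The median of the lateral plate and cardiac genes was -0.44 in Tet1-/-, -2.15 in DKO and -2.31 in TKO cells, that of the anterior streak genes -0.66, -0.81 and -1.63, that of the posterior streak genes -0.21, -1.15 and -0.49 and that of the streak signals -0.19, -0.28 and -0.32, beside medians of -0.01 to 0.02 over all genes.

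**Figure D5:**
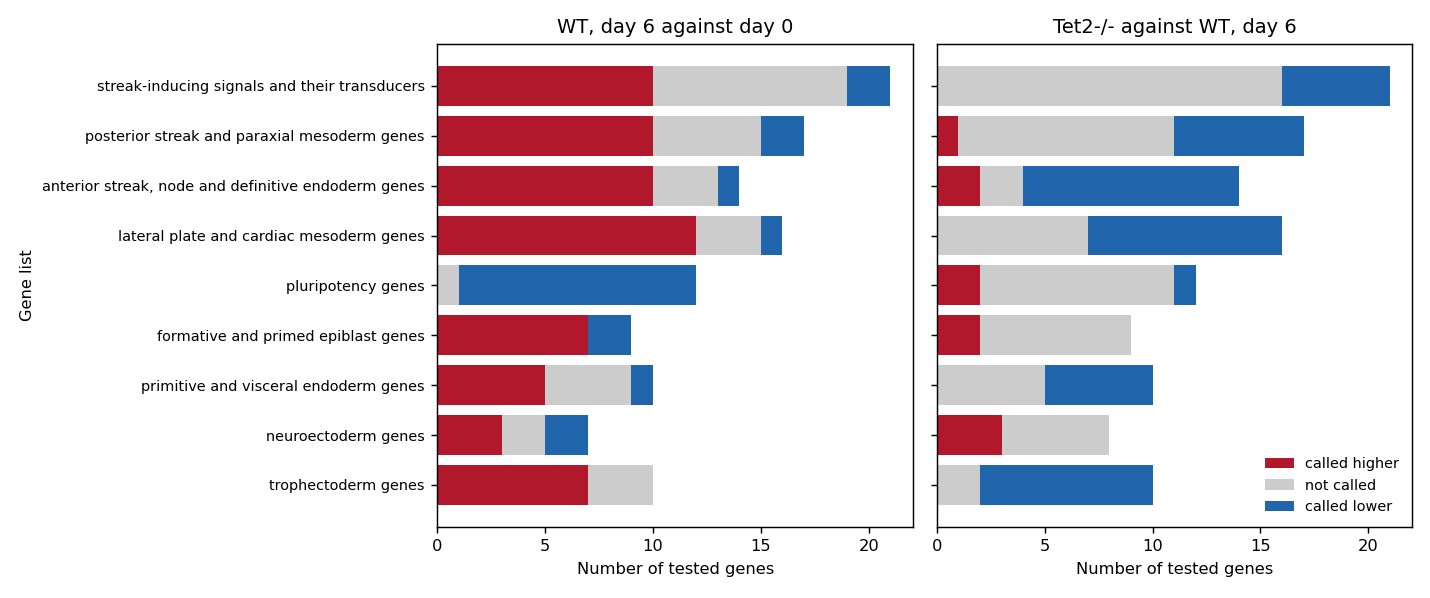
Number of tested genes called higher (red), not called (grey) and called lower (blue) for each list, in WT cells at D6 against D0 (left) and in Tet2-/- against WT cells at D6 (right). In the right panel 9 of 16 lateral plate and cardiac genes are blue, and 2 of 12 pluripotency genes and 3 of 8 neuroectoderm genes are red.

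Markers of other cell states and types also changed, some in the direction of the members and some against it, and their part in the member results was not tested. Of 12 pluripotency genes 11 fell in WT cells (median -2.05), such as Zfp42 from 881 to 78.1 CPM, Tfcp2l1 from 790 to 91.3 CPM, Esrrb from 816 to 107 CPM and Klf4 from 261 to 32.5 CPM. In Tet2-/- cells at D6 Pou5f1 was at 532 ± 61.2 CPM (SD, n = 2) against 232 ± 32.0 CPM (SD, n = 3) in WT (1.18 ± 0.274, adjusted p = 0.0128) and Klf2 at 173 ± 12 against 51.0 ± 30.8 CPM (1.73 ± 0.491, adjusted p = 0.0255), while Dppa3 was lower, at 0.431 against 2.98 CPM. Of 9 formative and primed epiblast genes 7 rose and 2 fell in WT cells (median 2.11), among them Fgf5 (0.154 to 144 CPM), Zic2 (12 to 159 CPM), Sall2 (9.56 to 72.4 CPM) and, falling, Foxd3 (57.0 to 5.68 CPM). In Tet2-/- cells Foxd3 stayed at 50.0 ± 7.03 CPM (adjusted p = 0.0169) and Pou3f1 was at 150 ± 3.98 against 62.7 ± 10.3 CPM (1.23 ± 0.371, adjusted p = 0.0316), the 2 calls of that list. The summed level of these 9 genes was 1640 to 1860 CPM in Tet2-/-, 1100 to 1590 CPM in WT and 524 to 1220 CPM in TKO cells.

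Of 8 neuroectoderm genes tested at D6, 3 were higher in Tet2-/- than in WT cells and none lower (median 0.93): the neuronal tubulin Tubb3 at 118 ± 12.5 against 13.5 ± 8.18 CPM (adjusted p = 0.00716), Pax6 at 3.14 against 0.425 CPM and Sox1 at 8.17 against 1.55 CPM. In WT cells 3 of 7 rose and 2 fell with withdrawal (median 3.05), with Nes going from 11.9 to 98.5 CPM and Tubb3 from 174 to 13.5 CPM, while Pax3 and Dcx rose from 0 to 0.779 and 0.346 CPM. Of 10 primitive and visceral endoderm genes 5 rose and 1 fell in WT cells (median 1.99), and 5 were lower and none higher in Tet2-/- cells (median -1.75), among them Gata6 (0.601 against 40.8 CPM), Gata4 (5.57 against 65.4 CPM) and Hnf4a (0.0318 against 2.76 CPM). The summed level of the 13 genes of that list was 25.7 to 29.3 CPM in Tet2-/- and 83.4 to 298 CPM in WT cells at D6. Of 10 trophectoderm genes 7 rose in WT cells (median 4.95), such as Krt18 (10.5 to 488 CPM) and Gata3 (0.127 to 13.8 CPM), and 8 were lower in Tet2-/- cells with none higher (median -3.70), such as Plac1 at 0.113 against 2.25 CPM, while Elf5 was at 0.220 CPM in WT and listed at 0 in Tet2-/- cells. The summed trophectoderm level was 138 to 141 CPM in Tet2-/-, 676 to 1520 CPM in WT and 627 to 916 CPM in TKO cells. Some genes stand in more than 1 list: Sox17 and Foxa2 in both endoderm lists, and Hand1 and Cdx2 in both a mesoderm and the trophectoderm list. Fgf4 and Tdgf1 are in the streak signal and pluripotency lists, and Tbx3 in the lateral plate and pluripotency lists. Gata4 is in the lateral plate and the primitive endoderm list, and Otx2 in the anterior streak and the formative list.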

How the data were processed

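Poly(A)-selected RNA with ERCC spike-ins was sequenced from 24 clonal ESC libraries. The authors aligned reads with STAR 2.5.1 to mm9 and deposited raw counts per RefSeq line. The sources used here do not settle which read counter was used, and its strand setting is not given in them. No spike-in rows were used here, so values are relative to total RNA; a global change cannot be seen.

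The first of the lines of a symbol was taken (31928 lines, 22926 symbols). CPM used TMM factors (0.918 to 1.10). Tests used edgeR 4.0.16 (R 4.3.3), quasi-likelihood, filterByExpr with a minimum count of 10, and Benjamini-Hochberg adjustment over all genes: 15639 in the fit of 24 libraries (D6 against D0, interaction), 15435 at D6 and 14456 at D0, with 21 comparisons. DESeq2 1.42.0, limma 3.58.1 (voom), other scalings, filters and fits were alternatives. The tests were checked on simulated counts. SE is the log2 difference divided by the root of F. Counting intervals (95%) cover counting error only.

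Clones carrying the same name at both days (11 pairs) are the same line, which is where the pairing comes from. Deviations from group means correlated at 0.0813 to 0.193 within pairs. Clone 2.3 was present only at D0 and 2.2 only at D6, and 1 D6 DKO library, labelled without the point of its clone name, was read as that clone.

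The members and lists were chosen with earlier results of these data known. Named list genes were up to 4 called genes per list with the largest change in WT D6 against D0 and in Tet2-/- against WT at D6, and nearest genes the 3 with the highest Pearson correlation over D6 libraries.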

Additional observations from a re-analysis of the deposited data

Results flagged for a closer look

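The change from D0 to D6 differed between a mutant and WT, by the edgeR test of the interaction itself, for 4 members in Tet2-/- cells: Mixl1 (-3.95 on the log2 scale), Tbx6 (-3.33), Gsc (-2.08) and Eomes (-1.84). In TKO cells it differed for Eomes (-2.80). Their errors, adjusted p and the libraries they rest on are given with the interaction results above.

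Eomes has 2 lines in the count tables, and only the first was used. The second line, outside the measurements reported, held 162 to 9978 counts per library, 1.007 to 1.03 times the first, and so gives the same gene over almost the same reads.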

How the results depend on the processing

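Alternatives were run for the number of members called in each of the 21 comparisons, and for each member with an unadjusted p under 0.05, none of which changed direction. Members with a higher p changed sign 72 times when a replicate was left out and 16 times under the other alternatives (lowest p 0.120 and 0.295). Scaling by library totals moved the median of all genes from about 0 to 0.14 to 0.21 on the log2 scale in D6 against D0 and moved no member across 0 there. For Tet2-/- against WT at D6, 7 members were called; scalings, DESeq2, no filter, summed lines and the block by number gave 7, limma-voom 6, all 24 libraries 8 and the 2 groups alone 9.

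Counts that moved by more than 1.5 times were as follows. TKO against WT at D6 went from 0 to 4 with DESeq2, 1 with no filter and 4 with all 24 libraries. TKO against WT at D0 went from 1 to 0 with library totals, limma-voom, all 24 libraries, the 2 groups alone and the replicate block by number. The interaction in Tet2-/- went from 4 to 7 with DESeq2 and 0 with limma-voom, and that in TKO from 1 to 2 with DESeq2, 0 with limma-voom and 2 with no filter. Tet2-/- against Tet1-/- went from 7 to 4, against DKO from 5 to 2 and against TKO from 3 to 1 with limma-voom, and against TKO to 5 with DESeq2 and with all 24 libraries. Smaller moves, each of 1 member, were a loss in D6 against D0 with limma-voom in each mutant genotype, a gain against Tet1-/- (8) with DESeq2, no filter and all 24 libraries and a loss (6) with the 2 groups alone, a gain against DKO (6) with DESeq2, all 24 libraries and the 2 groups alone, and a gain against TKO (4) with no filter and the 2 groups alone. The cause was not tested. For the leave-one-out ranges that follow, the share of all genes called in each fit is not given. They do not tell a loss in the members from a loss over all genes.

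Leaving out each replicate in turn gave ranges of 8 to 8 members called for D6 against D0 in WT, 8 to 9 in Tet1-/-, 2 to 4 in Tet2-/-, 6 to 8 in DKO and 6 to 7 in TKO. At D6 against WT the ranges were 0 to 9 for Tet2-/-, 0 to 4 for TKO and 0 to 0 for Tet1-/- and DKO. At D0 they were 0 to 1 for TKO and 0 to 0 for the others. They were 0 to 6 for the interaction in Tet2-/-, 0 to 2 in TKO and 0 to 0 in Tet1-/- and DKO. Tet2-/- ranged from 0 to 8 against Tet1-/-, 0 to 6 against DKO and 0 to 5 against TKO, and TKO against DKO from 0 to 0.

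With the replicate block by clone the interaction in TKO went from 1 to 3 members and that in Tet2-/- from 4 to 6, and D6 against D0 in Tet1-/- from 9 to 8; it changed no other call. The replicate numbers of the titles do not pair samples within a day, and a block by them gave 6 calls for Tet2-/- against Tet1-/- in place of 7. Depth limits Lhx1, Tbx6, T, Mesp1 and Evx1 at D0, where single libraries hold 0 to 17 counts.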
